A study of Mus musculus with 12 samples.

Results

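Opposite-strand lncRNAs are long non-coding RNAs that carry the name of a neighbouring or overlapping gene followed by "os", because they are transcribed from the other DNA strand of that gene. The members were all genes of the lncRNA count table with a non-coding gene type in the GENCODE M21 annotation of the mouse genome (GRCm38) and a name ending in "os" with or without a number. Those on chromosomes X and Y (2 genes) and a short list of names belonging to developmental regulators and to Oip5os1 (7 of them in the table) were set aside. This left 278 genes with 501 transcripts, of 22115 genes or assembled loci with 48033 transcripts in all.

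Such transcripts arise in a few ways. Where both start sites lie back to back, the gene and the lncRNA share 1 promoter region that is read in both directions, which is common at promoters rich in the dinucleotide CG. Where the lncRNA starts inside or beyond the partner and runs against it, the spliced RNAs can hold complementary stretches, and some antisense transcripts are known to regulate their partner while many have no known function.

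The samples were hippocampus and cerebral cortex from WT mice and from 5 × FAD mice, all on the C57BL/6J background and aged 7 months, with 3 libraries in each of the 4 groups. 5 × FAD mice carry transgenes of human APP and PS1 with familial mutations of Alzheimer's disease, and WT were non-transgenic mice of the same age. Total RNA was depleted of ribosomal RNA and sequenced as stranded paired-end libraries. Both regions came from each mouse, but the labels do not say which numbers are the same mouse, and p-values therefore measure the spread between these libraries only.

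The libraries held 3517967 to 5014389 counts, of which the members took between 0.102% and 0.135%. A single count was therefore worth little, and a library with 0 counts allows a level of up to 3 counts by counting error alone. Levels between libraries are given as CPM, counts scaled to library totals adjusted by TMM (trimmed mean of M values). The sex-linked counts did not match the stated composition of 2 females and 1 male in each group. Y-linked counts were 0 in the libraries labelled 5 × FAD 1 and 5 × FAD 2 of both regions and at least 1074 in the other 8 of 12 libraries, so every WT library had them. The library labelled 5 × FAD 3 also lay apart from the other two in non-coding rows of Trem2, a receptor of microglia, with 40.5 CPM in hippocampus and 19.8 in cortex against 178 to 232 in 5 × FAD 1 and 5 × FAD 2 and 19.4 to 53.5 in WT. The members named for the genotype are accordingly given also within the libraries with Y-linked counts and without 5 × FAD 3.

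The tissue labels were checked on marker genes, of which only non-coding rows are in the table. Of 10 hippocampal markers, 5 had counts, and their summed level was 117 to 138 CPM in hippocampus and 32.0 to 54.7 in cortex. Zbtb20, a transcription factor of hippocampal pyramidal neurons, was at 106 to 125 CPM in hippocampus and 25.7 to 48.0 in cortex, and Lct and Dsp had counts in every hippocampus library and in no cortex library. Calb1, a calcium-binding protein, overlapped (5.01 to 13.3 CPM against 5.46 to 8.19), as did Tdo2. Of 10 cortical markers, 6 had counts. Their sum overlapped between the regions (330 to 466 CPM against 279 to 461), with Etv1 outweighing the rest. Rorb was at 4.24 to 8.52 CPM in hippocampus and 11.5 to 15.3 in cortex, while each of the other 5 overlapped between the regions. Fewer cells of a type and less RNA per cell cannot be told apart in these bulk samples.

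A partner gene on the opposite strand was found for 276 of the 278 members. In 154 members, exon bases were shared with the partner. Another 78 lay within or across partner introns without exon overlap, 35 stood head to head with the partner without overlap, and 9 tail to tail. Most members were low or silent in these tissues. Of the 278 members, 87 (31.3%) had no count in any library, which over all 51403880 counts allows up to 0.0584 CPM on the unadjusted total, and 57 (20.5%) had more than 3 counts in all 12 libraries. Among 2372 antisense genes with other names, 35.6% had no count and 15.8% passed 3 counts in every library.

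Level followed the arrangement with the partner. Levels between genes are given per length, as counts scaled to transcript length and library total (RPKM), averaged over the 12 libraries. The median was 2.13 RPKM for the head-to-head members, of which 13 of 35 passed 3 counts in all libraries and 5 had none. It was 0.352 RPKM for members sharing exon bases (41 of 154 passed, 42 had none) and 0.024 RPKM for those in introns only, of which 1 of 78 passed and 36 had none. The one intronic member that passed was Lrp8os2. Distance between start sites gave the same order, with 40 of 118 members passing where the lncRNA started within 1000 bases of a partner start and 17 of 160 elsewhere (median 0.908 against 0.0448 RPKM). Counts of members that share exon bases may include reads of the partner, since the libraries were stranded but the strand setting of the counting is not given in the sources used here.

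**Figure D1:**
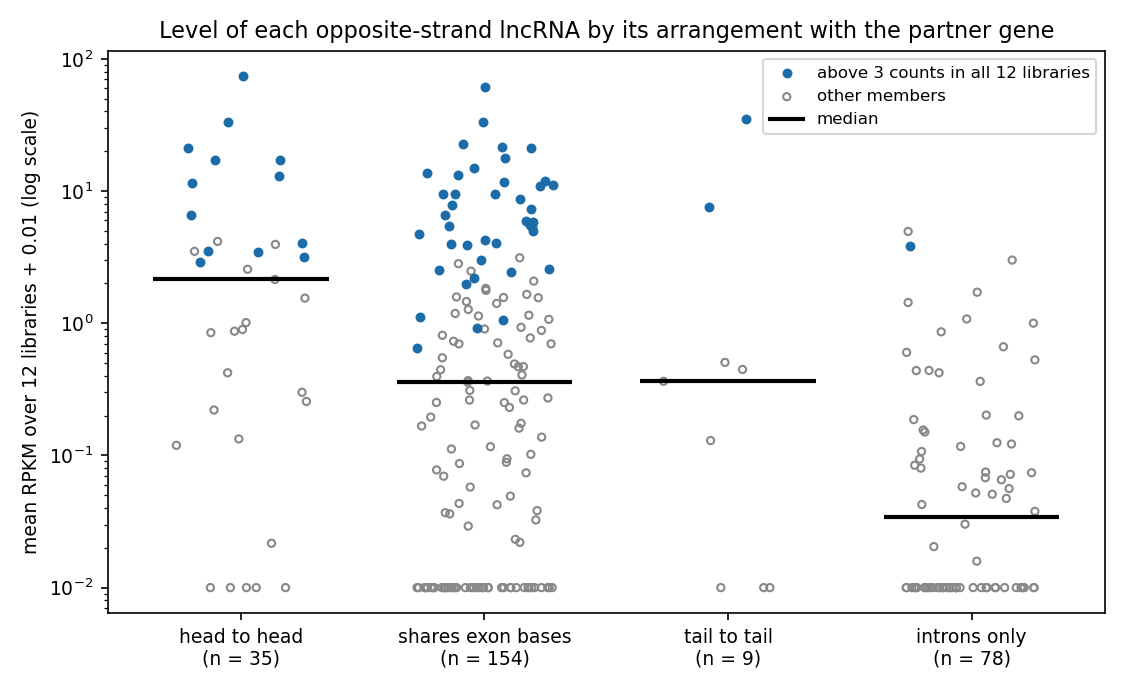
Mean RPKM of each member over the 12 libraries plus 0.01, on a log axis, by its arrangement with the partner gene; filled points passed 3 counts in every library, open points did not, and black lines are medians. Head-to-head members have the highest median (2.13 RPKM) and intronic members the lowest (0.024 RPKM), and members without counts lie on the bottom line.

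The head-to-head class is illustrated by 6 of its 35 members. All 6 had counts and no rule picked them, so they do not stand for the class. The DNA between the 2 start sites is shown, since this short stretch is all that separates the lncRNA from its partner. Each is on GRCm38, from the base after the lncRNA's start in GENCODE to the base before the partner's, and read on the partner's strand from RefSeq promoter windows, with CG dinucleotides in capitals.
Tmem147os: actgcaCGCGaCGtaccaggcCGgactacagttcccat
Cep83os: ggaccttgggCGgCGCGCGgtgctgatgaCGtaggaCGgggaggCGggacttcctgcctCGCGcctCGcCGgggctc
B9d1os: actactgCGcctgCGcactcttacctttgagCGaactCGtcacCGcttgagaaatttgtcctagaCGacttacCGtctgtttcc
Brip1os: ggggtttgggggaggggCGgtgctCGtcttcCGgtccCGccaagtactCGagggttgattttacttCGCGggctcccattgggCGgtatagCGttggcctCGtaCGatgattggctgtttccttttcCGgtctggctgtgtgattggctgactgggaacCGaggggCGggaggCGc
Fam120aos: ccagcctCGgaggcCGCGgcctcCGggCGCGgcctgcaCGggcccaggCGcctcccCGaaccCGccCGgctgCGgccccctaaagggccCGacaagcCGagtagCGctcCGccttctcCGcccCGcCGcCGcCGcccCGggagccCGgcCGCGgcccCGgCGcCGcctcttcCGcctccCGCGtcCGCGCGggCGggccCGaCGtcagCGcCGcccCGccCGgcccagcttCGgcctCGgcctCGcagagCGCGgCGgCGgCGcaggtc
Smc2os: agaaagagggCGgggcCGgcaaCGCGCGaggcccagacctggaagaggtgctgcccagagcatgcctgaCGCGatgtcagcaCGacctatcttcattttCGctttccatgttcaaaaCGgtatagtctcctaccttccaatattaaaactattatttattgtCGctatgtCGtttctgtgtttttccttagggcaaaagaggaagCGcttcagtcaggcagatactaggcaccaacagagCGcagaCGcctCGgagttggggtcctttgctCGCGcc

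These stretches lie at chr7:30729541-30729578 (Tmem147os, partner strand minus), chr10:94688577-94688653 (Cep83os, plus), chr11:61505060-61505143 (B9d1os, plus), chr11:86201194-86201369 (Brip1os, minus), chr13:48968018-48968286 (Fam120aos, minus) and chr4:52438966-52439242 (Smc2os, plus). CG occurred 4 times in the 38 bases of Tmem147os, 11 times in the 77 bases of Cep83os and 49 times in the 269 bases of Fam120aos. It occurred 7 times in the 84 bases of B9d1os, 15 times in the 176 bases of Brip1os and 18 times in the 277 bases of Smc2os. Over RefSeq windows of 300 bases around the start, the median number of CG was 15.5 for 70 members starting within 1000 bases of a partner start, 4.5 for 76 starting farther away and 7 for all 22862 windows of uniquely named genes. The letters GGGCGG, known as a GC box, were found on either strand in 41.4% of the windows of the nearby starts, 17.1% of the others and 35.2% of all windows. The share was 63.3% for the 30 windows of members that passed 3 counts in every library and 14.6% for the 48 windows of members without counts. The letters TATAAA were found in 4.29% of the nearby starts, 13.2% of the others and 14.8% of all windows, and CCAAT in 37.1%, 32.9% and 38.2%. A match is a description of letters and not a binding site.

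By partner role, transcription factors and chromatin proteins formed the largest class of known role, with 64 members. Of these, 17 (26.6%) passed 3 counts in all libraries and 25 (39.1%) had none. Examples without counts, chosen after their values were seen, were Hoxa11os, Hoxb3os, Hoxb5os and Hoxd3os1 of the Hox clusters, Hand2os1 of heart and limb, Hnf4aos of liver, Wt1os of kidney and gonad and Ptf1aos of pancreas and cerebellum. Members at other developmental factors passed, with 17 to 62 counts a library for Nkx2-2os and 18 to 43 for Tbx3os1. All 5 members at Sox5, a neuronal transcription factor, also had no count. Among enzymes of RNA, protein and metabolism, 11 of 49 passed and 16 were silent, and the figures were 7 of 35 and 8 for the cytoskeleton, adhesion and trafficking, 6 of 45 and 11 for signalling, and 2 of 17 and 8 for channels, transporters and the synapse. For 68 members the partner was not placed in a class, of which 14 passed and 19 were silent.

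The counts were concentrated in few members. Of 60242 counts, the 5 members with the most took 50.9%, led by Cep83os with 18.7% and Rab10os with 15.6%. Per length, the member at ENSMUSG00000097320.8, one of 2 genes named Tmem147os, was highest. It starts 39 bases from Tmem147, whose membrane protein belongs to the endoplasmic reticulum. Its RPKM was 57.8, 78.8 and 80.2 in hippocampus WT, 88.1, 60.9 and 64.5 in hippocampus 5 × FAD, 76.2, 70.7 and 80.6 in cortex WT, and 74.5, 57.9 and 95.6 in cortex 5 × FAD. The 4 groups overlapped throughout, with means between 71.2 and 76.0 RPKM.

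Rab10os, opposite the small GTPase gene Rab10 of vesicle transport, followed with 61.2 RPKM on average. It had 52.0, 45.6 and 58.5 RPKM in hippocampus WT, 73.8, 62.8 and 50.9 in hippocampus 5 × FAD, 61.4, 65.9 and 51.5 in cortex WT and 65.5, 70.8 and 76.2 in cortex 5 × FAD. Its main transcript, which has no exon base in common with Rab10, held 79.3% of its counts. In RPKM the genotypes overlapped narrowly in cortex, at 65.5 against 65.9. In CPM they did not overlap there (155.7 to 182.6 in WT, 207.4 to 212.0 in 5 × FAD), with a log2 difference of 0.28 (standard error 0.13, adjusted p = 0.740 by edgeR). Cep83os starts 78 bases from Cep83, which encodes a protein of the centriole needed for cilia. Its levels were 31.3, 30.1 and 34.1 RPKM in hippocampus WT, 24.8, 32.8 and 25.7 in hippocampus 5 × FAD, 42.9, 36.7 and 32.4 in cortex WT and 36.8, 39.7 and 34.6 in cortex 5 × FAD.

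The next levels were those of Epb41l4aos (35.2 RPKM, tail to tail with a gene of the band 4.1 membrane skeleton family) and Prox2os (33.2 RPKM). Prox2os shares 643 exon bases with Prox2, a homeobox gene, so its counts may hold reads of either strand. Kcnd3os at the potassium channel gene Kcnd3 had 22.6 RPKM, Junos at Jun, a subunit of AP-1, 21.7, and Sp3os at the zinc finger gene Sp3 21.2. Ino80dos at a subunit of the INO80 chromatin remodeller had 17.7 RPKM, Brip1os at the DNA repair helicase gene Brip1 17.2 and Fam120aos 17.1. The other Tmem147os gene, ENSMUSG00000109224.1, overlaps the first on the same strand, so reads may be split between them, and had 21.3 RPKM. The order within this range is loose. Epb41l4aos, Cep83os and Prox2os lay between 33.2 and 35.2 RPKM, closer together than their SDs within groups (2.03 RPKM or more, except 1.15 for Epb41l4aos in cortex 5 × FAD). Kcnd3os, Junos, the second Tmem147os and Sp3os lay between 21.2 and 22.6 RPKM, and their SDs were 1.44 RPKM or more.

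**Figure D2:**
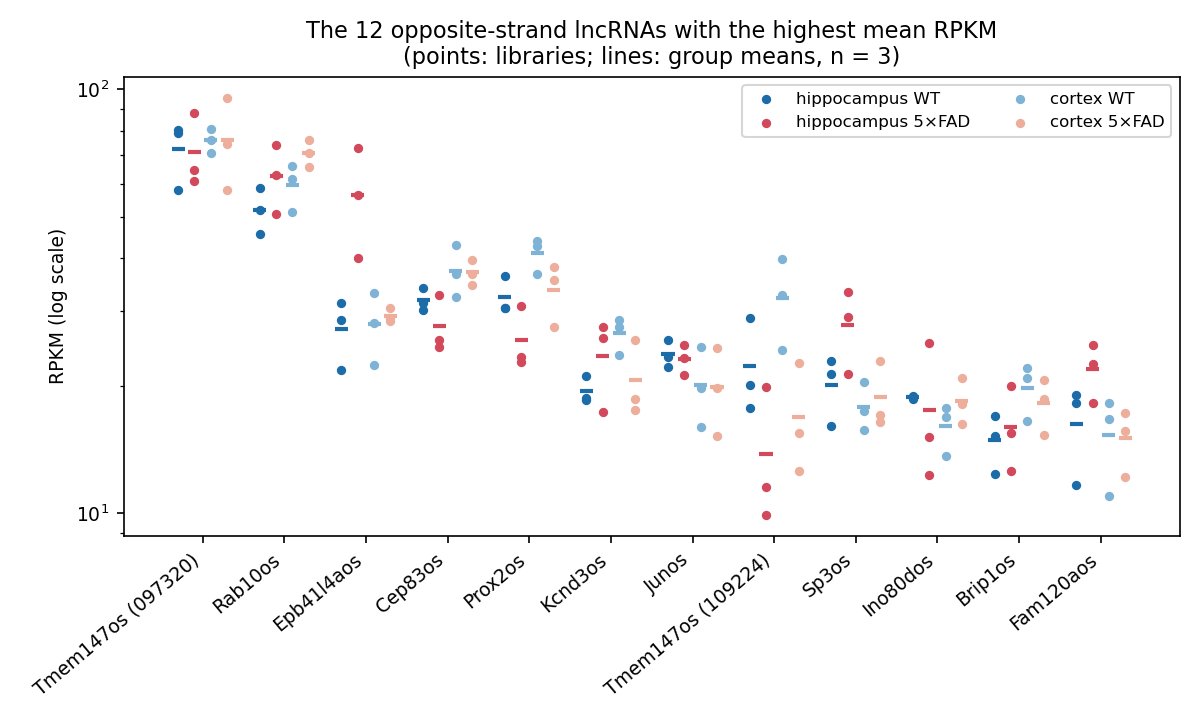
RPKM on a log axis of the 12 members with the highest mean, with 1 point a library and lines for the means of the 4 groups (n = 3); the numbers after Tmem147os are the last digits of its 2 gene identifiers. In the first Tmem147os all 4 groups overlap; hippocampus 5 × FAD lies above the other groups in Epb41l4aos (mean 56.4 RPKM against 27.3 to 29.3).

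The region comparison asked which members differ between hippocampus and cortex. In WT, 62 of the 278 members passed the filter on low counts, and 1 was called at an adjusted p under 0.05 by edgeR's quasi-likelihood test, against 3.5% of the 11431 genes tested. At an unadjusted p under 0.05 there were 9 members (14.5%; 17.3% of all genes), 5 higher and 4 lower in hippocampus, and the CPM of the regions did not overlap for 14 members (22.6%; 24.8% of all genes). The median log2 difference was -0.09 over the members and -0.02 over all genes. In 5 × FAD, 0 of 65 members were called by edgeR, against 0.193% of 11404 genes, and 9 had an unadjusted p under 0.05 (13.8%; 12.5% of all genes). DESeq2 called 3 members, and also more of all genes than edgeR did (totals are given with the dependence on processing below). The regions did not overlap for 13 members (20%, against 19.3% of all genes). The median was -0.10 over the members and 0.01 over all genes. The shares of members that differed were thus close to the background in both genotypes.

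The called member was Prox1os, opposite Prox1, the homeobox factor that specifies and maintains granule cells of the dentate gyrus in the hippocampus. It had 65, 90 and 83 counts in hippocampus WT and 97, 71 and 66 in hippocampus 5 × FAD, against 27, 12 and 13 in cortex WT and 16, 20 and 36 in cortex 5 × FAD. All 6 hippocampus libraries lay above all 6 cortex libraries. In CPM the means were 17.3 ± 2.96 and 19.0 ± 4.54 in hippocampus and 4.22 ± 1.93 and 5.69 ± 2.34 in cortex (WT and 5 × FAD, SD, n = 3). The log2 difference between the regions was 2.01 (standard error 0.35, adjusted p = 0.0308 by edgeR with Benjamini-Hochberg adjustment) in WT and 1.73 (standard error 0.37, adjusted p = 0.123) in 5 × FAD. The WT call was lost when any 1 library other than cortex WT 1 was left out, with log2 differences of 1.74 to 2.14 and adjusted p of 0.0717 to 0.114, and 0 members were called when each transcript was tested by itself. Prox1 itself has no row in the table.

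Prox1os lies on chromosome 1 from 190170296 to 190217276 on the plus strand of GRCm38 and has 828 bases in 2 exons, of which the first 133 run against a Prox1 exon. Bases 104 to 253 of the transcript (GENCODE) show where the antisense stretch, in capitals, ends.
Prox1os: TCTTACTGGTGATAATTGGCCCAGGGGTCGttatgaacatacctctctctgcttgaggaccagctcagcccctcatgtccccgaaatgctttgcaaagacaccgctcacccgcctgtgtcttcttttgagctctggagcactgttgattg

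Further members with groups apart in both genotypes were named after their values were seen. Of 56 members tested in both, the regions did not overlap and differed in the same direction in 5 (8.93%), against 6.94% of 11045 genes. They were Prox1os and Sap30bpos, higher in hippocampus, and Lrp8os2, Chn1os1 and Zmiz1os1, higher in cortex.

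Sap30bpos lies in introns of Sap30bp, which encodes a protein that binds a subunit of the Sin3 corepressor complex. It had 22, 19 and 24 counts in hippocampus WT and 10, 24 and 28 in hippocampus 5 × FAD. In cortex it had 0, 4 and 2 counts in WT and none in the 3 libraries of 5 × FAD. The log2 difference in WT was 3.20 (standard error 0.67, adjusted p = 0.0531 by edgeR), and 4.01 without cortex WT 2. In 5 × FAD, set against the 3 counts a library that counting error allows, its mean was at least 6.98-fold higher in hippocampus. That limit leaves out the spread of the hippocampus libraries and was not tested. The edgeR test on the counts themselves gave an adjusted p of 0.0796. Non-coding rows of Sap30bp itself had 3 to 64 counts in hippocampus and 2 to 57 in cortex, which overlapped (WT log2 difference 0.52, standard error 0.98). Spag17os, opposite a gene of the ciliary central apparatus, had 10, 4 and 10 counts in hippocampus WT, 4, 8 and 6 in hippocampus 5 × FAD and none in any cortex library, but was below the filter in both tests. Its mean was at least 2.39-fold higher in hippocampus in WT and at least 2.02-fold in 5 × FAD by the same limit. Kl, the 1 marker of choroid plexus with counts among 5, moved with these regions, at 6.74 to 46.9 CPM in hippocampus and 1.60 to 10.7 in cortex, and its part in the result was not tested.

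The Sap30bpos transcript is shown by its first 150 bases (GENCODE), none of which overlaps an exon of Sap30bp. It starts at base 115952105 of chromosome 11 on the minus strand.
Sap30bpos: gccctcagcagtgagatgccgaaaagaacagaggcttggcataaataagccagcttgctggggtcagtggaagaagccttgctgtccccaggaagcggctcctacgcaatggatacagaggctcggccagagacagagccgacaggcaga

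Of the members with higher cortex levels, Lrp8os2 had the smallest adjusted p in 5 × FAD and Chn1os1 in WT. Lrp8os2 lies within the first part of Lrp8, the gene of a reelin and apolipoprotein E receptor of neurons. Lrp8os2 had 20, 6 and 16 counts in hippocampus WT, 8, 14 and 16 in hippocampus 5 × FAD, 68, 69 and 16 in cortex WT and 53, 48 and 101 in cortex 5 × FAD. The regions did not overlap in CPM in either genotype, although cortex WT 3 (4.57 CPM) was close to the highest hippocampus WT library (4.28 CPM). Its log2 difference was -1.96 (standard error 0.59, adjusted p = 0.150 by edgeR) in WT and -2.36 (standard error 0.41, adjusted p = 0.0796) in 5 × FAD. The non-coding rows of Lrp8 differed by 0.37 (standard error 0.20) and 0.36 (standard error 0.38), neither past the threshold. The 250 bases before the RefSeq start of Lrp8os2 (chr4:107823023-107823272, minus strand) hold 4 CG, shown in capitals, in contrast to the head-to-head stretches above.
Lrp8os2: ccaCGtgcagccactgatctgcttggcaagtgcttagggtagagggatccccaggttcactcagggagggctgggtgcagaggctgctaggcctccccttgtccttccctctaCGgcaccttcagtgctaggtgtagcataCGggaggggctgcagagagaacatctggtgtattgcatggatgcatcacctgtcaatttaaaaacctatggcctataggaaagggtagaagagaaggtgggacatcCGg

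The partner of Chn1os1, Chn1, encodes chimaerin, a protein that switches off the GTPase Rac in neurons. Chn1os1 had 4, 7 and 7 counts in hippocampus WT, 6, 9 and 12 in hippocampus 5 × FAD, 26, 21 and 13 in cortex WT and 36, 16 and 30 in cortex 5 × FAD, so all cortex libraries lay above all hippocampus libraries. The log2 difference was -1.87 (standard error 0.39, adjusted p = 0.0543 by edgeR) in WT and -1.54 (standard error 0.43, adjusted p = 0.224) in 5 × FAD. Of its 636 bases, 533 run against Chn1 exons, so reads of the 2 strands may be mixed in these counts, and Chn1 has no row in the table. The first 150 bases (from base 73658270 of chromosome 2, plus strand) show the start of that overlap in capitals.
Chn1os1: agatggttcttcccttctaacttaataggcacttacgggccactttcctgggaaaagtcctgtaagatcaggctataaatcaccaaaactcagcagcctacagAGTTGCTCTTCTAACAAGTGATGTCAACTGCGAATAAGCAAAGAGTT

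Zmiz1os1, opposite a coactivator of the androgen receptor and Smad proteins, had a smaller difference, with 79, 89 and 68 counts in hippocampus WT, 96, 112 and 78 in cortex WT, 67, 57 and 63 in hippocampus 5 × FAD and 79, 71 and 85 in cortex 5 × FAD. Its log2 difference was -0.45 (standard error 0.16) in WT and -0.30 (standard error 0.22) in 5 × FAD, with adjusted p of 0.224 and 0.639. Foxo6os starts 4001 bases from Foxo6, a forkhead factor of neurons, and was tested in 5 × FAD only. It had 8, 0 and 2 counts in hippocampus WT, 3, 4 and 4 in hippocampus 5 × FAD, 4, 4 and 9 in cortex WT and 14, 19 and 27 in cortex 5 × FAD. In 5 × FAD the log2 difference was -2.39 (standard error 0.46, adjusted p = 0.0922 by edgeR), while in WT the groups overlapped.

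**Figure D3:**
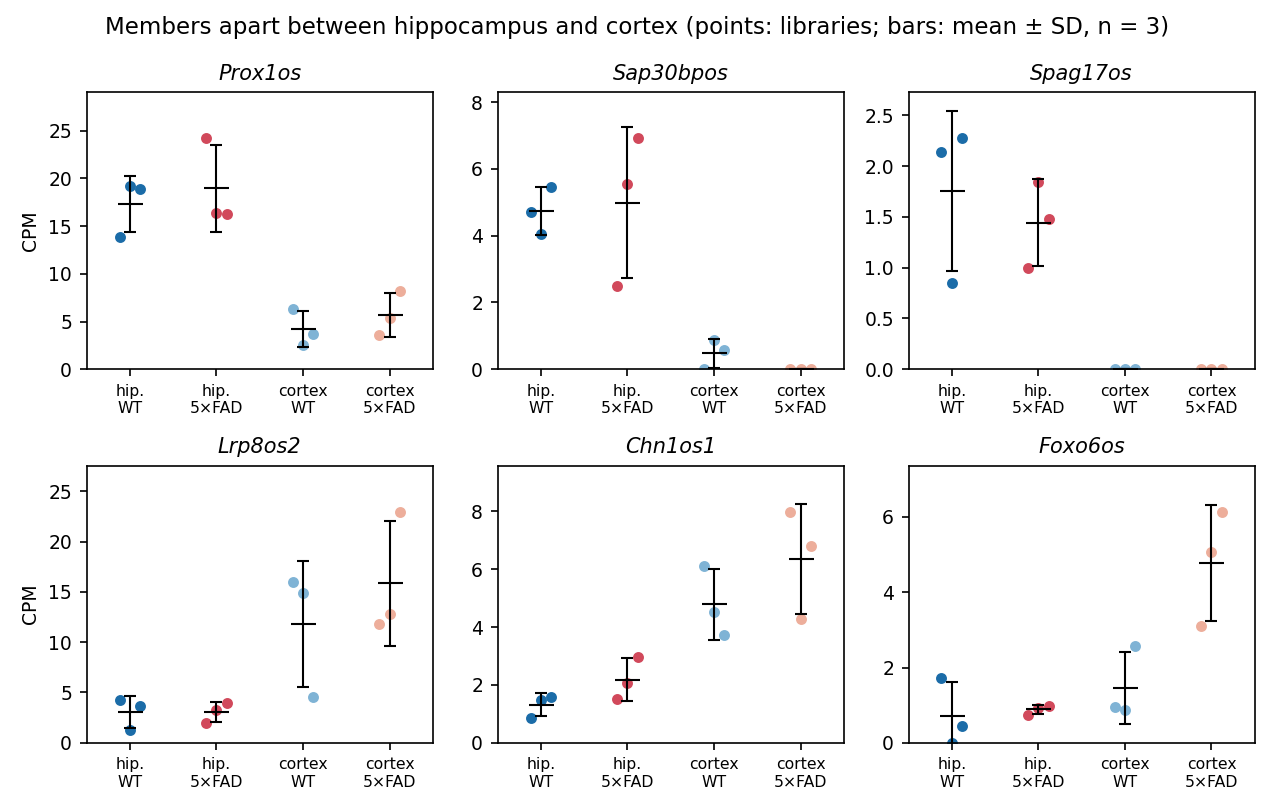
CPM of 6 members in hippocampus (hip.) and cortex, with 1 point a library and bars for mean ± SD (n = 3). Prox1os, Sap30bpos and Spag17os lie higher in hippocampus, with no cortex count of Spag17os, and Lrp8os2, Chn1os1 and, in 5 × FAD, Foxo6os lie higher in cortex.

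**Figure D4:**
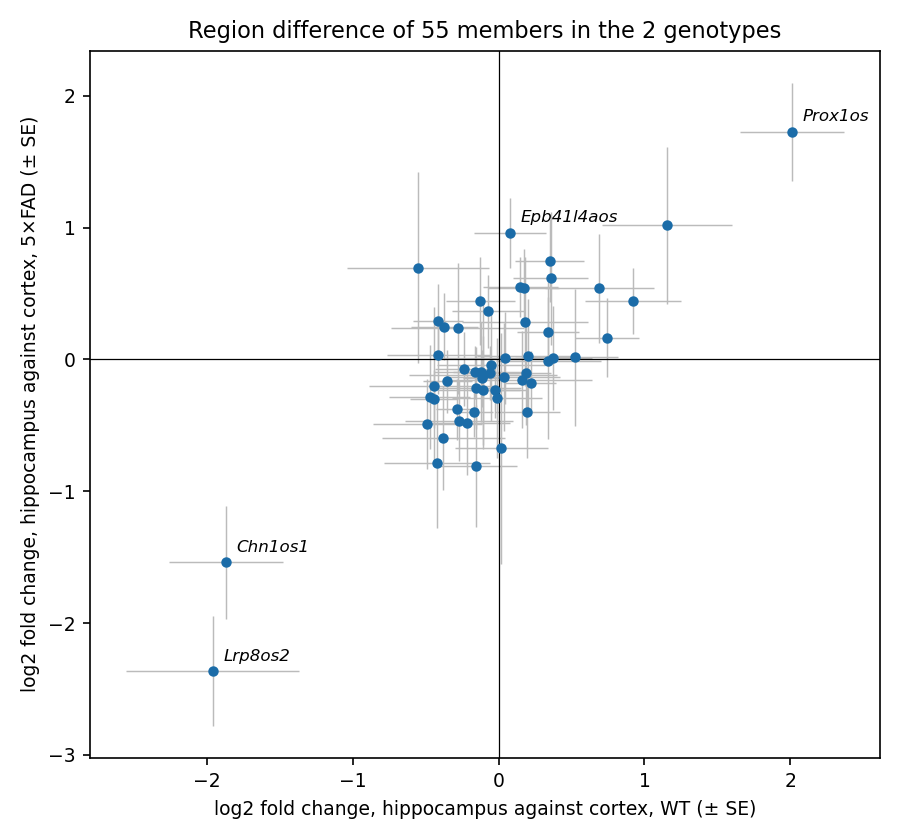
Log2 fold change of hippocampus against cortex in WT (x) and in 5 × FAD (y), each with its standard error, for the 55 members tested in both apart from Sap30bpos, which had no count in cortex 5 × FAD. Of these, 51 lie within 1 log2 unit of 0 on both axes; Prox1os lies at the upper right, and Chn1os1 and Lrp8os2 at the lower left.

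The genotype comparison asked which members differ between 5 × FAD and WT within a region. By edgeR, 0 of 58 members were called in hippocampus, against 0.0529% of 11345 genes, and 0 of 64 in cortex, against 0.0175% of 11409 genes. At an unadjusted p under 0.05 there were 5 members in hippocampus (8.62%, against 8.68% of all genes) and 5 in cortex (7.81%, against 6.68%). The CPM of the genotypes did not overlap for 12 members in hippocampus (20.7%, against 16.4% of all genes). In cortex this held for 9 members (14.1%, against 13%). DESeq2 called 1 member in hippocampus and 0 in cortex, and in both regions more of all genes than edgeR did (totals below). The median log2 difference over the members was -0.02 in both regions, against 0.03 and 0.00 over all genes. The 5 members with the smallest unadjusted p in each region are described below as values, none of which passed the adjusted test by edgeR.

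Zfp85os had the smallest p in both regions. Its partner Zfp85 is a zinc finger repressor gene of the KRAB family. It had 135, 122 and 94 counts in hippocampus WT and 19, 48 and 44 in hippocampus 5 × FAD, and 58, 119 and 65 in cortex WT and 34, 30 and 48 in cortex 5 × FAD. In both regions every 5 × FAD library lay below every WT library, the one with Y-linked counts included. The log2 difference was -1.48 in hippocampus (standard error 0.35, adjusted p = 0.464 by edgeR) and -1.13 in cortex (standard error 0.30, adjusted p = 0.714). Within the libraries with Y-linked counts, where 5 × FAD has 1 library a region, it was -1.20 and -0.82, and without 5 × FAD 3 it was -1.65 and -1.32. DESeq2 gave an adjusted p of 0.0297 in hippocampus, and over all alternatives the adjusted p lay between 0.0297 and 0.854 there and between 0.266 and 0.891 in cortex.

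The difference in counts lay mostly in 1 transcript in hippocampus and in another in cortex. ENSMUST00000049518 had 90, 63 and 50 counts in hippocampus WT and 0, 6 and 14 in hippocampus 5 × FAD, while the transcript with the most counts, ENSMUST00000143812, had 43, 56 and 33 against 17, 37 and 25. In cortex the first transcript was at 5, 30 and 17 counts (WT) and at 5, 0 and 8 (5 × FAD), and ENSMUST00000143812 at 44, 85 and 42 and at 27, 28 and 36. ENSMUST00000049518 has 2624 bases, of which 213 run against Zfp85 exons. Its first 150 bases, on the plus strand of chromosome 13 from 67744204, overlap none of them.
Zfp85os: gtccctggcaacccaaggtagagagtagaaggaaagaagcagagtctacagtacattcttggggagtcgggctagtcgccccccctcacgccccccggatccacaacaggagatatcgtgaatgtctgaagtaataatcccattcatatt

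Epb41l4aos, named above for its level, had higher counts in hippocampus 5 × FAD than elsewhere. It had 44, 60 and 58 counts in hippocampus WT and 119, 75 and 93 in hippocampus 5 × FAD, against 56, 51 and 31 in cortex WT and 51, 44 and 56 in cortex 5 × FAD. The 3 hippocampus 5 × FAD libraries, at 17.3 to 29.7 CPM, lay above all other 9 libraries. The log2 difference was 1.01 (standard error 0.28, adjusted p = 0.526 by edgeR), 0.98 within the libraries with Y-linked counts and 1.02 without 5 × FAD 3. Within 5 × FAD, hippocampus exceeded cortex by 0.96 (standard error 0.27, adjusted p = 0.222).

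Smc2os, head to head with a condensin subunit gene, had 3, 4 and 10 counts in hippocampus WT and 12, 26 and 14 in hippocampus 5 × FAD (log2 difference 1.74, standard error 0.57, adjusted p = 0.526 by edgeR; 2.45 without hippocampus WT 3). Mccc1os, at a gene of leucine breakdown, had 65, 45 and 39 counts against 15, 31 and 12 (-1.19, standard error 0.40, adjusted p = 0.527). Hectd2os, opposite a ubiquitin ligase gene, had 7, 6 and 7 counts against 17, 11 and 10 (1.09, standard error 0.42, adjusted p = 0.541). These 3 members were picked by their p, and their genotypes did not overlap in CPM in hippocampus. The same held for 20.7% of the members and 16.4% of all genes tested there. Within the libraries with Y-linked counts their log2 differences in hippocampus were 1.47, -1.83 and 0.77, and without 5 × FAD 3 they were 1.86, -0.95 and 1.23. In cortex the genotypes overlapped, as for Mccc1os with 32 to 63 counts in WT and 23 to 42 in 5 × FAD. Non-coding rows of the partner Mccc1 differed by 0.20 (standard error 0.19) in hippocampus and those of Hectd2 by -0.04 (standard error 0.16).

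In cortex, Foxo6os had the second smallest p, with 4 to 9 counts a library in WT and 14 to 27 in 5 × FAD (log2 difference 1.73, standard error 0.53, adjusted p = 0.723 by edgeR; 2.36 without cortex WT 3). For the Tmem147os gene ENSMUSG00000109224.1, WT libraries were at 75, 68 and 39 counts and 5 × FAD libraries at 46, 26 and 25 (-0.93, standard error 0.31, adjusted p = 0.723). Foxl2os, at a gene of ovarian differentiation, had 13, 18 and 9 against 9, 4 and 4 (-1.24, standard error 0.44), and Mypopos, at a Myb-like repressor gene, 14, 11 and 11 against 27, 23 and 18 (0.87, standard error 0.33). These members were also picked by their p, and the CPM of the genotypes did not overlap for any of them in cortex. The same held for 14.1% of the members and 13% of all genes tested there. Restricting the comparison to libraries with Y-linked counts gave log2 differences of 2.09, -1.35, -1.78 and 0.48 in the same order, and leaving out 5 × FAD 3 gave 1.497, -0.76, -1.03 and 1.04.

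**Figure D5:**
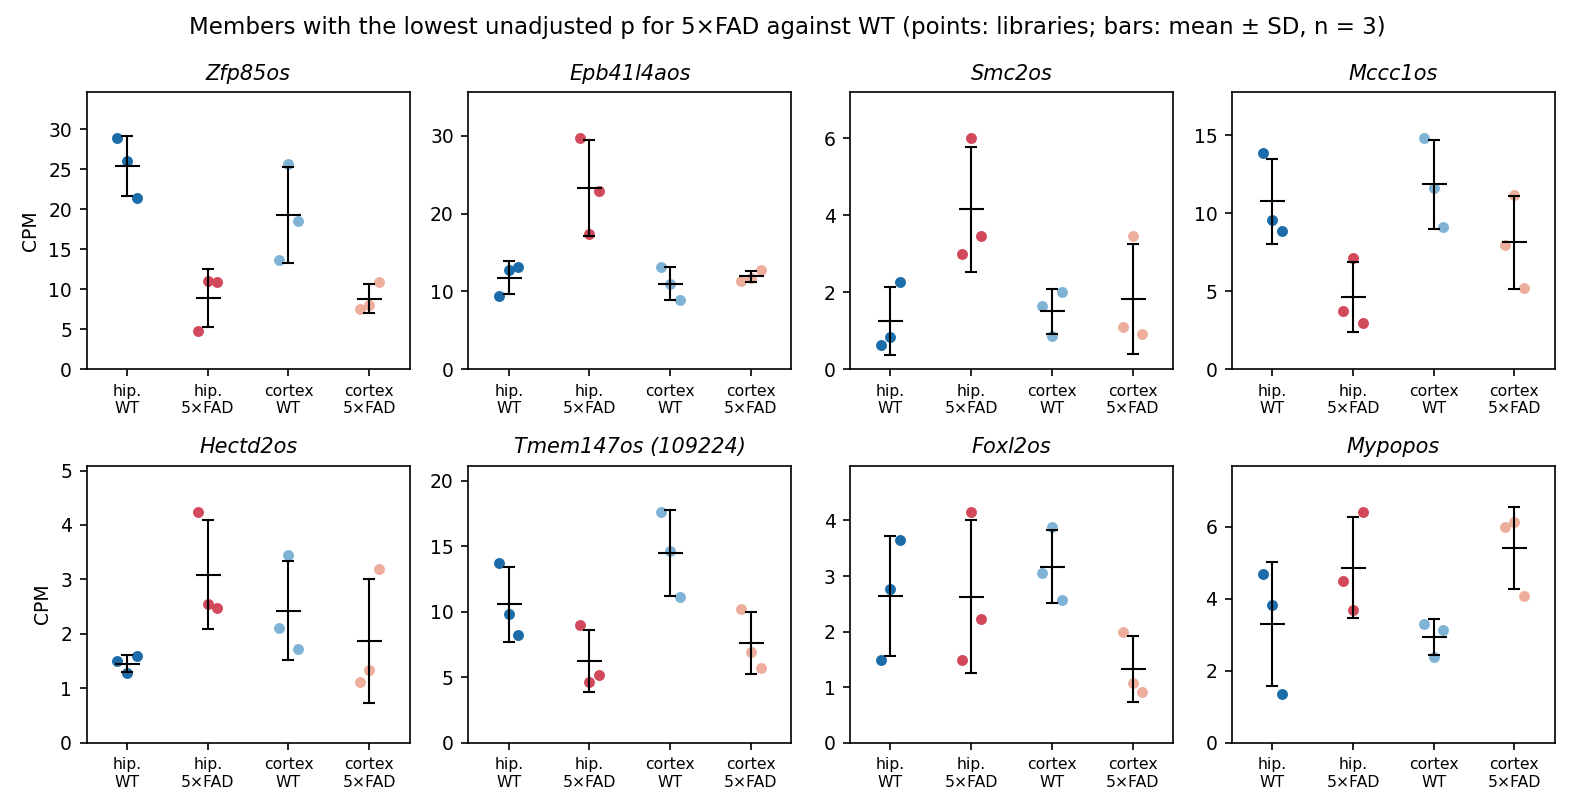
CPM of 8 members with the smallest unadjusted p for 5 × FAD against WT in hippocampus (hip.) or cortex, with 1 point a library and bars for mean ± SD (n = 3). Zfp85os lies lower in 5 × FAD in both regions and Epb41l4aos higher in hippocampus, where its difference between the regions was not past the interaction test; none passed the adjusted test.

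Marker lists of other cell types were summed beside these comparisons, and their part in them was not tested. Microglial markers (2 of 7 with counts) ranged from 28.7 to 40.7 CPM in hippocampus WT and 45.5 to 201 in hippocampus 5 × FAD, and from 46.0 to 59.5 and 25.0 to 241 in cortex. Astrocyte markers (5 of 6) were at 1430 to 1540 and 530 to 1200 CPM in hippocampus, and 961 to 1580 and 967 to 1530 in cortex. Oligodendrocyte markers (5 of 6) were at 349 to 439 and 506 to 592 CPM in hippocampus, and 300 to 469 and 539 to 613 in cortex. Vascular and meningeal markers (4 of 5) stayed between 17.5 and 46.6 CPM in all groups. Thalamic markers (5 of 5) ranged from 86.2 to 218 CPM in hippocampus and 63.1 to 288 in cortex. Striatal markers (4 of 6) were at 74.9 to 248 and 55.9 to 165 CPM in hippocampus (WT and 5 × FAD), and 222 to 374 and 476 to 514 in cortex. They were thus apart between the genotypes in cortex and between the regions in 5 × FAD.

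An interaction term over all 12 libraries tested whether the genotype difference itself was unequal in hippocampus and cortex. By edgeR, 0 of 73 members were called, and of 12109 genes 0%. At an unadjusted p under 0.05 there were 2 members (2.74%; 7% of all genes), and DESeq2 called 0. They were Sap30bpos (adjusted p = 0.672 by edgeR), whose cortex 5 × FAD libraries were all at 0, and Epb41l4aos (difference of log2 differences 0.87, standard error 0.35, adjusted p = 0.672).

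The partners were followed through their own non-coding rows, which are retained introns and processed transcripts. Of 234 partner genes, 120 were tested for the region difference in WT, and 25 had an unadjusted p under 0.05 (20.8%, against 17.3% of all genes). By edgeR 3 were called, all higher in hippocampus, against 3.5% of all genes tested. These were Hectd2 (log2 difference 0.96, standard error 0.17, adjusted p = 0.0297 by edgeR), the annexin gene Anxa11 (0.78, standard error 0.14, adjusted p = 0.0302) and Prkag2, a subunit of the energy sensor AMPK (0.73, standard error 0.13, adjusted p = 0.0354). None of their opposite-strand lncRNAs passed the filter there, and Anxa11os had no count. In 5 × FAD, 0 of 118 were called for the region difference, against 0.193% of all genes. At an unadjusted p under 0.05 there were 16 (13.6%, against 12.5% of all genes). For the genotype difference, 1 of 118 was called in hippocampus and 0 of 118 in cortex, against 0.0529% and 0.0175% of all genes. In each region 7 had an unadjusted p under 0.05 (5.93%, against 8.68% and 6.68% of all genes). The called one was Srrm4, a splicing factor of neurons, whose antisense Srrm4os had no count in any library.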

How the data were processed

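RNA was measured in 12 libraries, 3 of WT and 3 of 5 × FAD mice in each of hippocampus and cerebral cortex. The authors deposited whole-number counts per transcript without normalization. Before that, TRIzol-extracted RNA was freed of ribosomal RNA and made into stranded, paired-end libraries. The submitters' processing notes name Trimmomatic 0.36 and edgeR. The counting program, its strand setting and the annotation are not given in the sources used here. All 12 columns were used.

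Transcripts were matched to GENCODE M21 of GRCm38 (225 Ensembl rows were not found there) and their counts were summed per gene or assembled locus. CPM used library totals scaled by TMM over the 12 libraries, and in tests of overlap over the libraries compared. RPKM used unscaled totals and transcript lengths, summed over transcripts. The precision is set by totals of 3517967 to 5014389 counts, and limits of 3 counts cover counting error only. The main test was edgeR 4.0.16 under R 4.3.3 (filterByExpr, TMM, glmQLFit, glmQLFTest) with Benjamini-Hochberg adjustment over all genes tested and a threshold of 0.05. Each comparison used its own 6 libraries, and the interaction all 12. The standard error was the size of the log2 difference over the square root of F. Alternatives were DESeq2's size factors, library size only, DESeq2 1.42.0, other filters, the replicate number as a block, single transcripts, all 12 libraries in 1 fit, libraries with Y-linked counts and leaving out each library. A region term over both genotypes was chosen after seeing the data.

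The members, partner roles and marker lists were chosen with earlier results of these data known. The named members were the 12 with the highest mean RPKM, those called in both genotypes with regions apart (none met this), up to 5 with the smallest unadjusted p in each genotype comparison, and their partners. Prox1os, Sap30bpos, Spag17os, Lrp8os2, Chn1os1, Zmiz1os1, Foxo6os for the region, and the silent and called partner examples, were named after their values were seen. B9d1os was named for its sequence only, outside these rules. The functions were tested on simulated counts with known folds. Of genes given a log2 fold of 1 in either direction, 9.375% were called for the region in WT and 0% in 5 × FAD. The shares were 3.03% and 2.15% for the genotype in hippocampus and cortex, and 0% for the interaction, so most such changes were missed. At a log2 fold of 2 they were 76.0%, 56.4%, 59.6%, 62.8% and 25.25% in the same order. For the region in WT, 15 unchanged genes were also called. Promoter sequences are from RefSeq (GRCm38.p6), where 146 members had a uniquely named window, and transcripts from GENCODE. Figures were drawn with Python 3.11.15, pandas 2.3.3 and matplotlib.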

Additional observations from a re-analysis of the deposited data

Results flagged for a closer look

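For 2 low members, the 5 × FAD libraries lay on opposite sides of WT in the 2 regions without overlap in CPM. In counts the genotypes met or overlapped in cortex for both members and in hippocampus for Uckl1os. The difference was not tested, since both were below the filter on low counts, and the share over all genes was not counted. Il1bos, opposite the interleukin gene Il1b, had 4, 6 and 2 counts in hippocampus WT and none in the 3 libraries of hippocampus 5 × FAD, against 0, 4 and 0 in cortex WT and 5, 6 and 4 in cortex 5 × FAD. The genotype difference in hippocampus minus that in cortex was -1.78 CPM. Uckl1os, opposite a uridine kinase gene, had 4, 9 and 6 counts in hippocampus WT and 8, 13 and 12 in hippocampus 5 × FAD, against 6, 6 and 4 in cortex WT and 4, 0 and 5 in cortex 5 × FAD, a difference of 1.88 CPM. These counts are within a few of the limit of 3. Groups of 3 libraries were not tested for outliers.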

How the results depend on the processing

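Of the 5 counts of called members, 67 of 81 alternatives gave a count within 1.5 times the reported one. For hippocampus against cortex in WT (1 called), DESeq2 called 3 (Prox1os, Sap30bpos and Lrp8os2), all 12 libraries in 1 fit called 2 (Prox1os and Chn1os1), single transcripts called 0, and leaving out each library gave 0 to 1. For the same comparison in 5 × FAD (0 called), DESeq2 called 3 (the same members as in WT), and all 12 libraries in 1 fit called 2 (Prox1os and Sap30bpos). A region term over both genotypes, chosen after seeing the data, called 4 members, namely those 3 and Chn1os1, with adjusted p of 0.000854 to 0.00388; it counts both regions of a mouse as independent. For 5 × FAD against WT, DESeq2 called 1 member in hippocampus (Zfp85os), and the other alternatives called 0 there and in cortex. Over all genes, DESeq2 called 761, 336, 82, 53 and 23 in the 5 comparisons in the order reported, against 400, 22, 6, 2 and 0 by edgeR. Of 310 alternative fits of 22 named log2 differences, 288 stayed on their side of the threshold, 16 passed it, 6 fell short of it and 0 changed direction. The causes were not tested. The comparison of regions in 5 × FAD could not be run within the libraries with Y-linked counts, which leave 1 library a region.

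With the replicate number as a block, 0 members were called in hippocampus against cortex in WT (Prox1os: log2 difference 2.06, adjusted p = 0.127 by edgeR) and 5 genes in all; the block changed no other count of members. Same-numbered libraries of the 2 regions had correlated deviations of 0.0116, -0.0326 and -0.0355 in WT and 0.0727, 0.0951 and 0.261 in 5 × FAD, so the numbers were not taken to pair the samples.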

Other observations

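Further members tested above but not named there are described here, chosen after their values were seen, and none passed the adjusted test by edgeR. Dio3os, opposite the enzyme gene that inactivates thyroid hormone, had 27, 13 and 15 counts in hippocampus WT and 22, 12 and 28 in hippocampus 5 × FAD, against 10, 8 and 4 in cortex WT and 12, 3 and 17 in cortex 5 × FAD. The log2 difference between the regions was 1.15 in WT (standard error 0.45, adjusted p = 0.248 by edgeR), where they did not overlap, and 1.02 in 5 × FAD (standard error 0.60), where they did. Ptgs2os, which starts 68 bases from a start of the prostaglandin synthase gene Ptgs2, had 37, 52 and 32 counts in hippocampus WT and 21, 19 and 27 in hippocampus 5 × FAD, and 57, 38 and 30 against 48, 28 and 20 in cortex. The genotypes did not overlap in hippocampus (log2 difference -0.66, standard error 0.31, adjusted p = 0.599 by edgeR) and did in cortex.

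Phtf1os and Zbtb11os1 did not overlap between the regions in WT, with hippocampus at 13.4 ± 0.78 against cortex at 7.86 ± 1.38 CPM and 18.4 ± 5.39 against 9.55 ± 3.22 CPM (SD, n = 3), at adjusted p of 0.145 and 0.211 by edgeR. In 5 × FAD they overlapped, at 10.9 ± 0.70 against 9.68 ± 2.81 CPM and 17.9 ± 1.40 against 13.1 ± 3.01 CPM.

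Many members were measured through few transcripts. Of 81 members with at least 60 counts over the 12 libraries, 45 had several transcripts in the table, and in 17 of these 1 transcript held 80% or more of the counts. The minor transcript of the first Tmem147os gene, ENSMUST00000183194, went from 5 to 59 counts within hippocampus WT and from 4 to 46 within cortex WT, while the major one stayed between 294 and 362 and between 236 and 400.

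Non-coding rows of Srrm4, the called partner, had 43, 49 and 43 counts in hippocampus WT and 798, 710 and 567 in hippocampus 5 × FAD. In cortex the counts were 1016, 47 and 40 in WT and 37, 26 and 1095 in 5 × FAD, so high and low libraries occurred in both genotypes.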
